A study of Mus musculus with 8 samples.

Results

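The 6 genes described here, Dusp1, Dusp2, Dusp4, Dusp5, Dusp6 and Dusp10, encode dual-specificity phosphatases that switch off mitogen-activated protein (MAP) kinases. They were taken by name from a table of 13341 genes. All 6 were present, and all 6 were among the 10845 genes tested. The RNA came from T cells of MRL/lpr mice aged 14 weeks, in which a defect of the death receptor gene Fas (the lpr allele) goes with a lupus-like autoimmunity that inflames the kidney. Every group carries that allele, and no healthy or treated group is analysed here. The cells were sorted for high surface CD44, which marks antigen-experienced T cells, and the 4 groups were CD4+ cells of kidney, CD8+ cells of kidney, CD4+ cells of spleen and CD8+ cells of spleen, with 2 libraries each (8 in all, n = 2 throughout). The labels do not say whether the 2 libraries of a group came from separate animals, so the p-values measure the spread between these libraries, which may be technical.

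MAP kinases carry signals from the T cell receptor and from cytokine and stress receptors to the nucleus. The main branches are ERK, JNK and p38, and each kinase is active only while a threonine and a tyrosine in its activation loop are both phosphorylated. The Dusp phosphatases remove both phosphates. Many of them are themselves induced by MAP kinase signals and so form a negative feedback loop, and they differ in where they sit in the cell and in the kinases they prefer. Dusp1, Dusp2, Dusp4 and Dusp5 are nuclear proteins whose genes are induced by stimulation, Dusp6 is a cytoplasmic phosphatase of ERK, and Dusp10 acts on JNK and p38.

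Sequences before the annotated start were found for 5 of the 6 genes in RefSeq (build GRCm38.p6), all but that of Dusp4. The 250 bases before the start are shown for Dusp1 and Dusp2, the most abundant members. Within each organ Dusp1 had higher levels in CD4+ and Dusp2 in CD8+ cells, although limma called neither difference. The window of Dusp5 is shown because it has another makeup. Capitals mark the core of the cyclic AMP response element (CRE; letters TGACG) in Dusp1 and Dusp5, the hypoxia response letters ACGTG in Dusp1 and Dusp2, and the CArG box, the binding motif of serum response factor, in Dusp5. Both strands were searched, so a site may appear as its reverse complement. The windows are chr17:26508473-26508722 (minus strand) for Dusp1, chr2:127335909-127336158 (plus strand) for Dusp2 and chr19:53528895-53529144 (plus strand) for Dusp5.
Dusp1: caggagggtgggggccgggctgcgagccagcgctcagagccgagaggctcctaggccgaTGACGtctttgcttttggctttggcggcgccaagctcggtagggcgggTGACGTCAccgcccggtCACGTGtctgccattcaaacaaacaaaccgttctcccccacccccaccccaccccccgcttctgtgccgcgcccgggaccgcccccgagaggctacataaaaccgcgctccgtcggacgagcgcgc
Dusp2: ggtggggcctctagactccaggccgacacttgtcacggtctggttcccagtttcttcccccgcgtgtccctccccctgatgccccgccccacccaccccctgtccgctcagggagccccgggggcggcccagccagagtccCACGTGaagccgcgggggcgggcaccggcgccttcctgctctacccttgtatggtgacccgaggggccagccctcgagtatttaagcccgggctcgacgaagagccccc
Dusp5: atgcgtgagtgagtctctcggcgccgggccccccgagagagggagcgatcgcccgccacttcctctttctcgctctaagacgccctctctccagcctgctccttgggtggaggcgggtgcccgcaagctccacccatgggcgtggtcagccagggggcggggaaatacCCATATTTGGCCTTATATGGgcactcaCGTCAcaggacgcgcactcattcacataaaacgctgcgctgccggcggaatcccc

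The Dusp1 window held 3 CRE cores, at -191, -143 and -140 from the start. The last 2 overlap and form 1 full CRE, TGACGTCA, a sequence present in 1.55% of 32851 mouse promoter windows of the same length. The core is present in 17.8% of them. The Dusp2 window held 0 CRE cores. Dusp1 and Dusp2 each had 1 CACGTG at -126 and at -109, a palindrome that holds ACGTG once on each strand, and 16.6% of all windows hold ACGTG. The Dusp5 window held 2 CArG boxes, at -82 and -72, a motif found in 1.47% of all windows, and 1 CRE core at -55 that overlaps a match to ACGTG at -57. Dusp6 had 2 matches to GGAAA, the core that NFAT factors bind, and Dusp5 had 1, at -90, left in lower case above. Of all windows, 55.6% hold GGAAA. Dusp10 matched none of the 7 motifs searched. The AP-1 motif TGANTCA (6.75% of all windows) and the NF-kappaB motif (3.90%) matched none of the 5 windows. A match is a description of letters and does not show that a factor binds there.

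**Figure D1:**
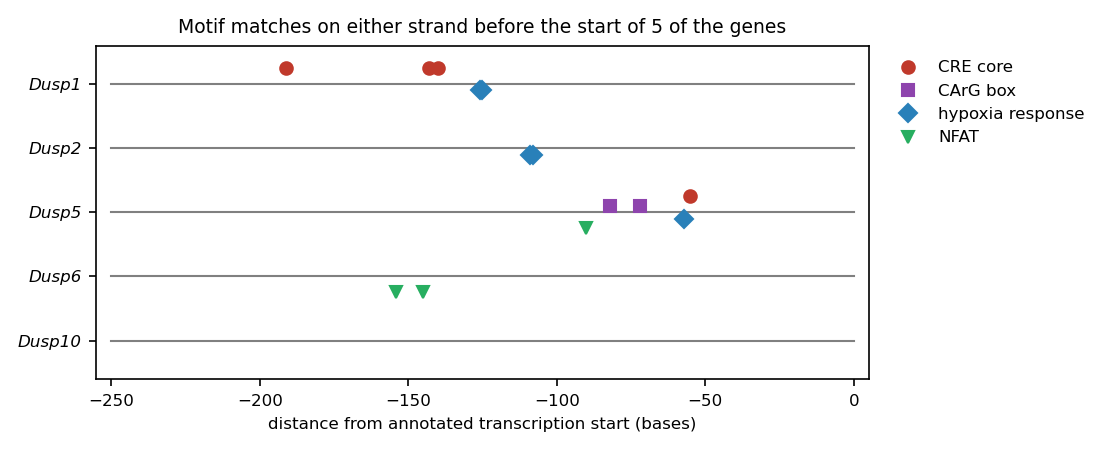
Matches to 4 motifs on either strand, by distance in bases from the annotated start, for the 5 genes with a sequence. CRE cores lie in the windows of Dusp1 and Dusp5, CArG boxes lie in that of Dusp5, and the window of Dusp10 has no match.

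The libraries held 7477544 to 11169003 reads. A level below is the deposited normalised count, in which 1 read was worth 0.554 to 1.04. Cd4 and Cd8a followed the labels. Cd4 was at 1365 to 2224 in the 4 CD4+ libraries and at 0 to 17.8 in the 4 CD8+ libraries. Cd8a was at 12159 to 18556 in CD8+ and at 1.11 to 103 in CD4+ libraries. Cd44, whose surface protein was sorted for in all groups, was uneven at the RNA level. It was at 1563 and 1011 in kidney CD4+ and at 637 and 586 in spleen CD4+ libraries. In CD8+ libraries it was at 352 and 429 in kidney and at 182 and 282 in spleen. Cd3e, part of the CD3 chains that carry the receptor signal, was present in all 8 libraries. It stood at 637 in kidney CD4+ replicate 2, against 4225 to 6826 in the other 7. The summed level of 8 T cell markers, Cd3e among them, was not low there, at 115668 against 95817 in kidney CD4+ replicate 1. That sum was 111736 to 118215 in kidney CD8+, 94840 to 97011 in spleen CD4+ and 81273.5 to 83632 in spleen CD8+ libraries. The log2 difference between replicates over the tested genes had an SD of 0.85 and 0.98 in the CD8+ and CD4+ pairs of spleen, 1.47 in the CD8+ pair of kidney and 1.90 in the kidney CD4+ pair, so results that involve kidney CD4+ cells rest on the least alike pair.

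The clearest difference among the 6 genes was that of Dusp2, a nuclear phosphatase of ERK and p38 that is made by activated lymphocytes (chromosome 2, 127161895 to 127164112, plus strand, mm9). It was at 815 and 846 in the kidney CD4+ replicates and at 2592 and 1294 in the kidney CD8+ replicates. In spleen it was at 233 and 284 in CD4+ and at 498 and 455 in CD8+ cells. All 4 kidney libraries were above all 4 spleen libraries, and in both organs the CD8+ libraries were above the CD4+ libraries. Of all tested genes, 9.43% kept the 4 kidney and 4 spleen libraries apart. The cell types did not overlap in 27.9% in kidney and in 45.7% in spleen. From highest to lowest the groups ran kidney CD8+, kidney CD4+, spleen CD8+ and spleen CD4+, with no overlap between neighbours. The share of tested genes with a full order of this kind was not computed. Over both cell types together Dusp2 was 3.52-fold higher in kidney (log2 fold change 1.81 ± 0.28 SE, limma adjusted p = 0.0104), the single call among the 6 members in this comparison, where 3.37% of all tested genes were called.

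Taken apart by cell type, the organ difference of Dusp2 had nearly the same size in both. It was 3.22-fold in CD4+ cells (log2 fold change 1.69 ± 0.40 SE, limma adjusted p = 0.131) and 3.84-fold in CD8+ cells (1.94 ± 0.40 SE, limma adjusted p = 0.0615), and neither passed the threshold of 0.05 alone. The organ difference in CD8+ minus that in CD4+ cells was 0.25 ± 0.57 SE (limma adjusted p = 0.999). The call over both cell types held in 15 of 19 alternative analyses (adjusted p from 1.01e-06 to 0.0802) and was lost when any 1 of the 4 spleen libraries was left out. The log2 fold change stayed between 1.56 and 2.06 in all 19.

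Markers of other cells also differed between the organs. The summed level of 10 proximal tubule markers was 8389 to 20751 in kidney CD4+ and 5935 to 24040 in kidney CD8+ libraries, against 0 to 4.99 in spleen, where Miox, Fbp1 and Slc34a1 had 0 reads. The 9 macrophage markers summed to 6538 to 6840 in kidney CD4+ and 1790 to 2391 in kidney CD8+ libraries, against 1685 to 2271 in spleen CD4+ and 844 to 1446 in spleen CD8+ libraries, with Adgre1 at 0 in the last. Erythroid markers ran the other way, with 7307 to 13188 in spleen and 8.46 to 170 in kidney over 5 genes, as did 4 B cell markers, with 367.5 to 978 in spleen and 182 to 247 in kidney. The part of these cells in the organ difference was not tested. In bulk samples of this kind, fewer cells of a type and less RNA per cell cannot be told apart.

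Dusp4, a nuclear phosphatase of ERK and JNK (chromosome 8, 35870351 to 35882948, plus strand), stood out by its near absence from spleen CD8+ cells. It was at 6.06 and 1.91 there, which is 9 and 2 reads. It was at 46.7 and 42.4 in kidney CD8+, 37.1 and 31.1 in spleen CD4+ and 43.0 and 119 in kidney CD4+ cells. The other 6 libraries were thus all above both spleen CD8+ libraries, and kidney CD4+ and kidney CD8+ cells overlapped in range. The share of all tested genes that set 1 group apart from the other 3 was not computed. Between CD8+ and CD4+ cells of spleen, limma did not call Dusp4 (log2 fold change -2.95 ± 0.77 SE, limma adjusted p = 0.261). Of 20 alternatives, 1 called that difference. Over both cell types Dusp4 had a log2 fold change of 2.19 ± 0.54 SE between kidney and spleen (limma adjusted p = 0.0806), with all 4 kidney libraries above the 4 spleen ones. A full separation of that kind was seen in 9.43% of tested genes. In CD8+ cells alone its log2 fold change was 3.33 ± 0.77 SE (limma adjusted p = 0.0922). All 4 groups share 1 estimate of the spread. Leaving out both kidney CD4+ libraries, a setting added after the data were seen, called 745 of 10845 tested genes, against 168 with all 8. Dusp4 passed there (limma adjusted p = 0.0350). It was called in 5 of 20 alternatives (adjusted p from 0.0128 to 0.623).

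Dusp1, an immediate early gene whose nuclear product acts on JNK and p38 in particular (chromosome 17, 26642535 to 26645464, minus strand), was the most abundant member per kb in every group but kidney CD8+ cells, and its levels differed mainly between cell types. It was at 2493 and 2527 in spleen CD4+ and at 1869 and 2406 in kidney CD4+ cells. In CD8+ cells it was at 1379 and 1111 in kidney and at 765 and 900 in spleen. All 4 CD4+ libraries were above all 4 CD8+ libraries. In that order (spleen CD4+, kidney CD4+, kidney CD8+, spleen CD8+) no neighbouring groups overlapped. The share of all tested genes with such a split or order was not computed. Within 1 organ, the cell types did not overlap in 45.7% of tested genes in spleen and in 27.9% in kidney.

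In spleen, Dusp1 was 3.02-fold lower in CD8+ than in CD4+ cells (log2 fold change -1.60 ± 0.33 SE, limma adjusted p = 0.118; unadjusted p = 0.00107). Its SE also pools the unlike kidney CD4+ pair. It was called when only the 4 spleen libraries were used (limma adjusted p = 0.0388). It was also called without both kidney CD4+ libraries (limma adjusted p = 0.00195), a setting added after the data were seen. Both settings called more genes in all than the 39 called with all 8 libraries. Of 21 alternatives, 6 called Dusp1 and the others did not. In kidney the same difference was -0.78 ± 0.33 SE (limma adjusted p = 0.572). The 9 neutrophil markers summed to 5752 and 9376 in spleen CD4+ and 3672 and 6577 in spleen CD8+ libraries, and were at 0 to 29.6 in kidney, with Ngp, S100a9 and Elane at 0 reads there. The macrophage sum was also higher in CD4+ than in CD8+ libraries, at 1685 and 2271 against 844 and 1446 in spleen and at 6840 and 6538 against 2391 and 1790 in kidney. The part of neutrophil and macrophage RNA in these differences was not tested.

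Between organs, Dusp1 ran in opposite directions in the 2 cell types, although neither difference passed. In CD4+ cells both kidney libraries were below both spleen libraries (log2 fold change -0.24 ± 0.33 SE, limma adjusted p = 0.890), and in CD8+ cells both were above (0.58 ± 0.33 SE, limma adjusted p = 0.606). The test of the difference between these effects gave 0.82 ± 0.46 SE (limma adjusted p = 0.999; unadjusted p = 0.114). That is too small to separate from the spread between libraries.

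**Figure D2:**
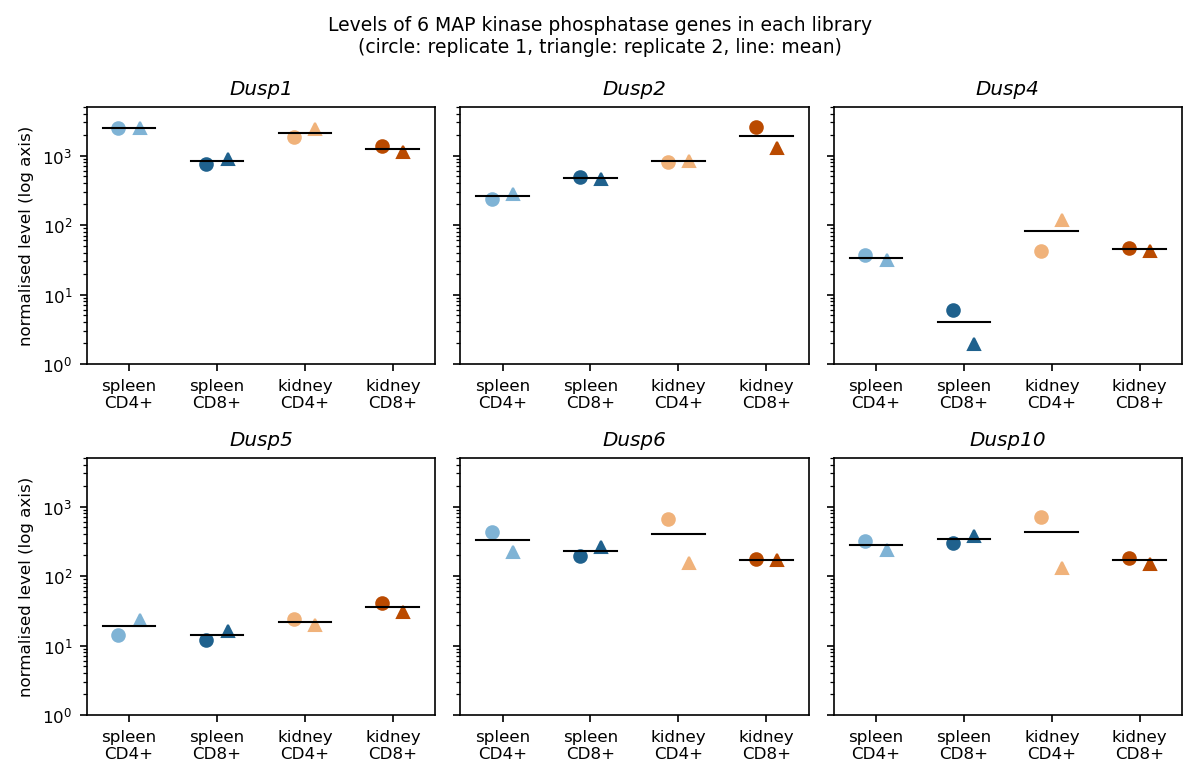
Normalised level (log axis) of each gene in the 4 groups; circles and triangles are replicates 1 and 2 and lines are group means of 2 libraries. Dusp2 is higher in all 4 kidney than in all 4 spleen libraries, Dusp1 is higher in CD4+ than in CD8+ libraries, and Dusp4 is at 6.06 and 1.91 in spleen CD8+ cells.

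Dusp5, a nuclear phosphatase of ERK alone (chromosome 19, 53603599 to 53616921, plus strand), was low in all groups, with 17 to 49 reads a library. It was at 41.6 and 30.1 in kidney CD8+ and 24.0 and 19.8 in kidney CD4+ cells, and at 14.4 and 23.3 in spleen CD4+ and 12.1 and 16.2 in spleen CD8+ cells. Kidney CD8+ cells were above the other 3 groups, whose neighbours in order overlapped. How many of all tested genes set 1 group apart in this way was not computed. The organ difference in CD8+ cells was 1.27 ± 0.68 SE on the log2 scale (limma adjusted p = 0.575) and that in CD4+ cells 0.24 ± 0.68 SE (limma adjusted p = 0.955). Neither difference exceeded the spread between libraries by the test.

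Dusp6, the cytoplasmic ERK phosphatase (chromosome 10, 98725865 to 98730122, plus strand), and Dusp10, the phosphatase of JNK and p38 (chromosome 1, 185837181 to 185899515, plus strand), varied together over the libraries. Dusp6 was at 657 and 156 in kidney CD4+, 175 and 170 in kidney CD8+, 437 and 219 in spleen CD4+ and 196 and 264 in spleen CD8+ cells. Dusp10 was at 715 and 132 in kidney CD4+, 184 and 151 in kidney CD8+, 320 and 234 in spleen CD4+ and 296 and 383 in spleen CD8+ cells. Kidney CD8+ cells had the lowest mean of both genes and lay below the next group, and the other 3 groups overlapped in turn. Both genes were lowest in kidney CD4+ replicate 2 and highest in kidney CD4+ replicate 1, a spread of 4.21-fold for Dusp6 and 5.41-fold for Dusp10 within 1 group. In contrast Dusp2 differed 1.04-fold and Dusp1 1.29-fold between the same 2 libraries. Log2 levels of Dusp6 and Dusp10 correlated at Pearson r = 0.89 over the 8 libraries, which share the depth and the quality of each library for both genes.

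In CD8+ cells both kidney libraries were below both spleen libraries for Dusp6 (log2 fold change -0.39 ± 0.66 SE, limma adjusted p = 0.894) and for Dusp10 (-1.01 ± 0.70 SE, limma adjusted p = 0.698). In CD4+ cells the sign of either depended on which kidney library was kept. Dusp10 was at 0.17 ± 0.70 SE with both, at -1.04 without replicate 1 and at 1.38 without replicate 2. Dusp6 was at 0.05 ± 0.66 SE with both, at -0.98 without replicate 1 and at 1.08 without replicate 2. No direction can be given for these 2 genes in CD4+ cells. Over both cell types, the log2 fold change of Dusp10 was -1.03 without kidney CD4+ replicate 1 and 0.19 without replicate 2.

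**Figure D3:**
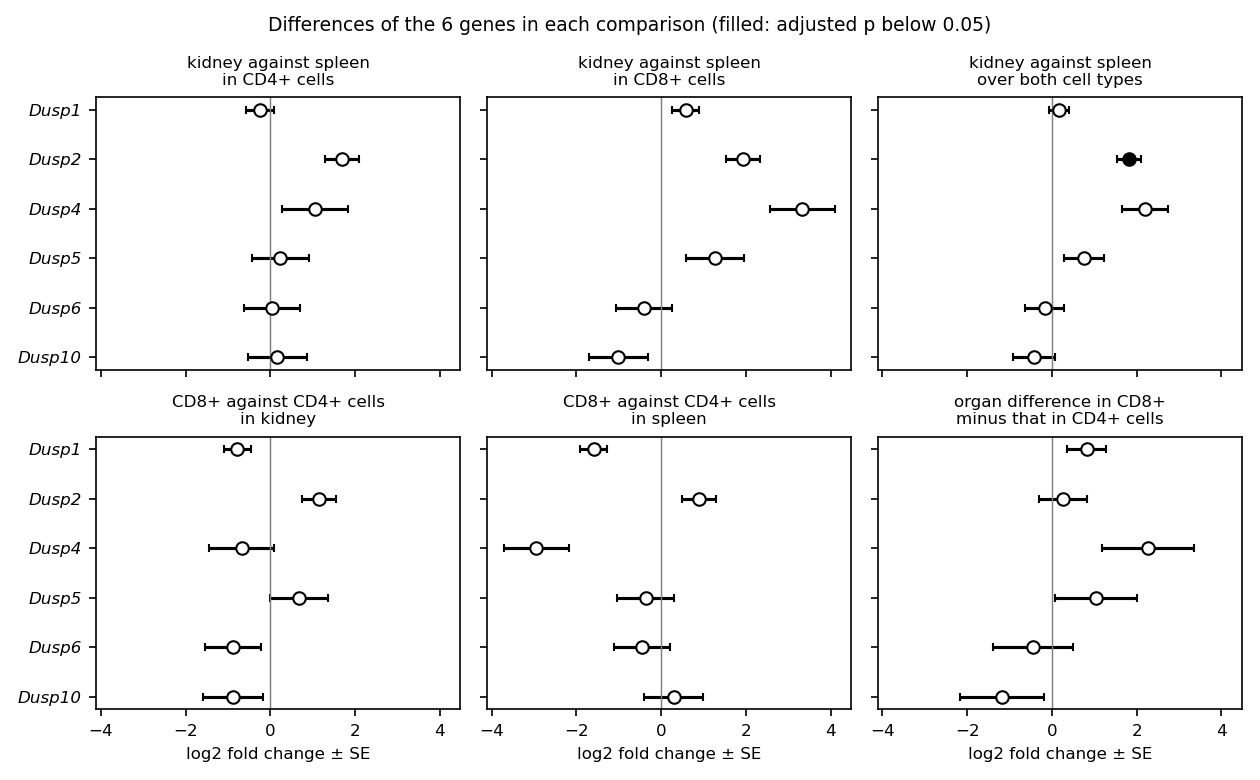
Log2 fold change with its SE for each gene in the 6 comparisons, from limma on 8 libraries; filled points passed an adjusted p of 0.05. The single filled point is Dusp2 in kidney against spleen over both cell types, at 1.81.

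By comparison, limma called 0 of the 6 members in CD4+ cells between organs (0.959% of all tested genes called) and 0 in CD8+ cells (1.55%). It called 0 between cell types in kidney (0.203%), 0 in spleen (0.360%), and 0 for the difference between the organ effects, where 0 of all tested genes were called (0%). At an unadjusted p below 0.05 the members numbered 1, 2, 2, 2 and 0 in the same order, and all tested genes 9.11%, 10.6%, 8.51%, 6.43% and 3.34%. Over both cell types 2 members, Dusp2 and Dusp4, were under that p, as were 14.2% of all tested genes. The edgeR test on whole reads called 0 members in each of these 5, and DESeq2 called 1, 2, 0, 1 and 0. In CD8+ cells the levels of all 6 members did not overlap between organs, 4 higher and 2 lower in kidney, as was the case for 51.1% of all tested genes. In CD4+ cells 3 of 6 did not overlap (31.9% of all tested genes). Between cell types 3 of 6 did not overlap in kidney (Dusp1, Dusp2 and Dusp5; 27.9% of all tested genes) and 3 of 6 in spleen (Dusp1, Dusp2 and Dusp4; 45.7%). The median log2 fold change of the 6 was 0.46 over both cell types, against -0.06 for all tested genes.

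The makeup of the 6 genes shifted with organ and cell type. Per kb of exon (2003 to 3042 nt a gene), Dusp1 took 69.9% and 74.7% of their summed level in the spleen CD4+ libraries and Dusp2 took 8.81% and 11.3%. In kidney CD4+ cells Dusp1 took 43.4% and 60.9% and Dusp2 25.5% and 28.8%. In spleen CD8+ cells Dusp1 took 40.1% and 42.3% and Dusp2 35.2% and 28.8%. In kidney CD8+ cells Dusp2 was the leading member, with 65.9% and 54.0% against 26.1% and 34.4% for Dusp1. Dusp6 and Dusp10 each took 2.97% to 15.96% of the sum in any library, and Dusp4 and Dusp5 each took less than 3%.

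The ratio of Dusp1 to Dusp2 reads within a library does not depend on how libraries are scaled. It was 10.7 and 8.90 in spleen CD4+ cells and 2.29 and 2.84 in kidney CD4+ cells. It was 1.54 and 1.98 in spleen CD8+ cells and 0.532 and 0.859 in kidney CD8+ cells. The ratio was lower in kidney than in spleen within each cell type and lower in CD8+ than in CD4+ cells within each organ. The 4 groups did not overlap. The orders between cell types, and that between organs in CD4+ cells, follow from the levels of Dusp1 and Dusp2 given above. How many pairs of genes have a ratio that separates the 4 groups was not computed. The summed level per kb was 1465 to 1595 in kidney CD4+, 1196 to 1963 in kidney CD8+, 1255 to 1322 in spleen CD4+ and 706 to 789 in spleen CD8+ libraries. Spleen CD8+ cells thus had the lowest sum in both libraries.

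**Figure D4:**
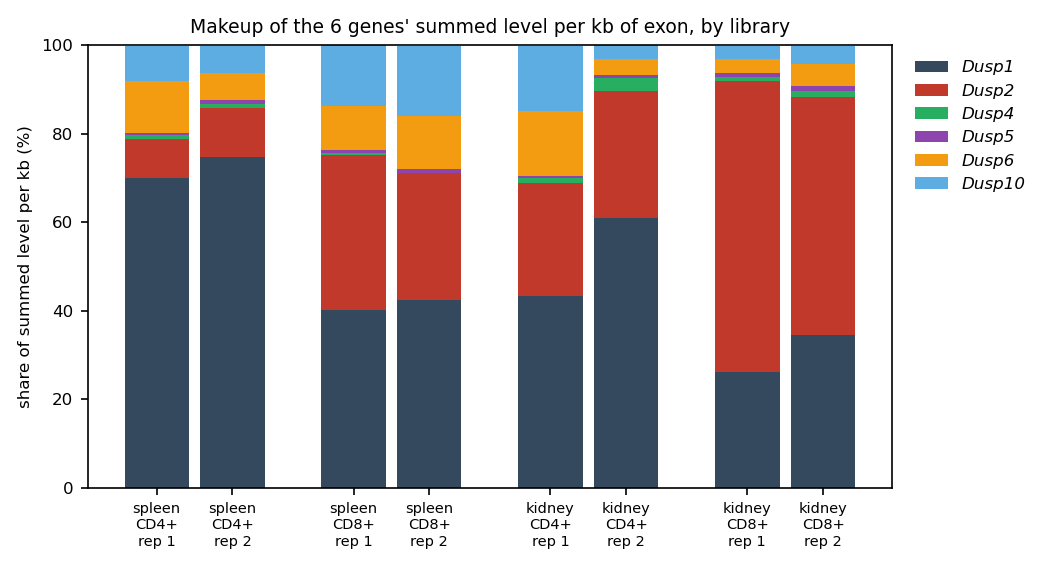
Share of each gene in the summed level per kb of exon of the 6 genes, as a percentage, for each of the 8 libraries. Dusp1 has the largest share in CD4+ libraries, up to 74.7% in spleen, and Dusp2 has the largest in kidney CD8+ libraries, at 65.9% and 54.0%.

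The other genes of the MAP kinase pathway were read from 9 lists. Of the 4 other MAP kinase phosphatases listed, 2 were in the table, Dusp7 and Dusp16, and 0 were called in any of the 6 comparisons. Dusp7 was at 25.02 to 64.1 in every library. Dusp16 was at 72.6 and 64.5 in kidney CD4+ cells and at 0 to 26.6 in the other 6 libraries (log2 fold change between organs in CD4+ cells 3.28 ± 1.68 SE, limma adjusted p = 0.643). Between organs over both cell types, 0 of 7 tested MAP kinases, 0 of 7 MAP kinase kinases, 0 of 14 upstream kinases, 0 of 11 genes of the input from Ras and 0 of 9 MAP kinase-activated kinases were called by limma. In the same comparison 0 of 7 atypical dual-specificity phosphatases and 0 of 3 Sprouty and Spred inhibitors were called. At an unadjusted p below 0.05 these 7 lists had 2, 0, 0, 0, 0, 1 and 0 genes in that order. Between cell types 0 genes of all 9 lists were called by limma in either organ. At an unadjusted p below 0.05 each list had 0 to 3 genes in either organ, as did 8.51% of all tested genes in kidney and 6.43% in spleen. Of the 3 Sprouty and Spred genes, 2 were under that p in kidney and 2 in spleen. Their median (CD8+ against CD4+ cells) was 1.37 in kidney and 1.78 in spleen, with 2 genes above 0 and 1 below in each. The medians of the 7 lists between organs were -0.18, -0.07, 0.12, 0.06, -0.05, 0.24 and 0.53, against -0.06 for all tested genes.

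Immediate early genes, which MAP kinases induce within minutes of a stimulus, had called members. Over both cell types 4 of 20 tested were higher in kidney, 0 were lower and 16 did not pass (2.71% of all tested genes were called higher). The 4 were Crem, a factor of the cyclic AMP response, the nuclear receptors Nr4a2 and Nr4a3, and Fosl2, a subunit of AP-1. In CD8+ cells alone these 4 were called and in CD4+ cells alone Crem was, while for the difference between the organ effects 0 of 20 were called by limma or had an unadjusted p below 0.05. Crem had a log2 fold change of 3.70 ± 0.28 SE (limma adjusted p = 2.52e-04) and Nr4a3 one of 4.25 ± 0.53 SE (limma adjusted p = 0.00342). The list's median was 0.15, near that of all tested genes at -0.06, with 12 of its 20 genes above 0 and 8 below. At an unadjusted p below 0.05 over both cell types the list had 9 of 20 genes, some higher and some lower in kidney. The share of all tested genes under that p was 14.2%. The list was not tested as a set. Dusp1 is often counted among immediate early genes, but its log2 fold change over both cell types was 0.17 ± 0.23 SE (limma adjusted p = 0.786).

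**Figure D5:**
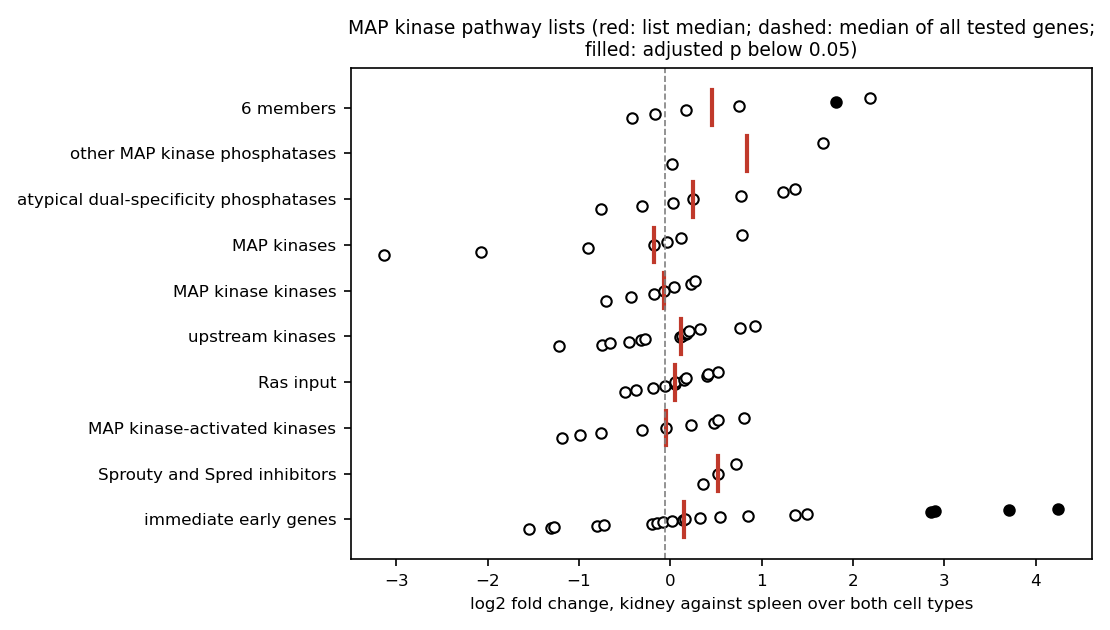
Log2 fold change between kidney and spleen over both cell types for the 6 members and for 9 lists of pathway genes; each point is a gene, filled where the adjusted p was below 0.05, red bars are list medians and the dashed line is the median of all tested genes. Filled points are Dusp2 and 4 immediate early genes.

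For each member, the 3 most similar genes by Pearson correlation of log2 level over the 8 libraries were taken from 6244 tested genes with a mean level of at least 50. Those of Dusp1 were Ms4a6c (r = 0.973), Rab37 (r = 0.968) and Cd4 itself (r = 0.963), the marker by which the cells were sorted. Those of Dusp2 were Aga, a lysosomal amidase (r = 0.996), Bcl2l11, which encodes the death protein BIM (r = 0.976), and Pmepa1, a target of TGF-beta signals (r = 0.971). Those of Dusp4 were Dkkl1, Lxn and Orai1 (r = 0.968 to 0.963), and Orai1 is the calcium channel opened by T cell receptor signals. Those of Dusp5 included Hip1 (r = 0.975) and Ntan1 (r = 0.959). Those of Dusp6 were Ets1, a transcription factor of lymphocytes (r = 0.990), Ikbkb, a kinase that activates NF-kappaB (r = 0.984), and Vps11 (r = 0.983). Those of Dusp10 were Med1 (r = 0.984), Vav1, a signalling protein of the T cell receptor (r = 0.983), and Itgb2, the beta chain of the integrin LFA-1 (r = 0.979). The 8 points of each correlation share library, depth and group, and with 6244 genes searched such values describe these libraries alone.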

How the data were processed

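RNA of the sorted cells was extracted on small columns and made into libraries with SMART-Seq v4, a method for small inputs that amplifies full-length cDNA and keeps no strand information, per the labels' protocols. The submitters' processing notes list the build mm9 with STAR 2.5.3 and TopHat2 2.1.0, and the series text has STAR and Bowtie. For the counting step, the annotation and any filter were not given in the sources used here.

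Values came as 1 table deposited by the authors as normalised counts, a signal per gene and library, with 13341 genes and 8 columns, of which 0 were left unused. Each deposited signal was a whole multiple of a step fixed per library (100% of values, tolerance 1e-06), so whole reads were recovered by division. Columns were matched to samples by organ, cell type and replicate number in their names.

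The 6 comparisons used limma 3.58.1 (R 4.3.3) with a pseudocount of 1 before taking log2, the means of 4 groups over 8 libraries and an intensity trend, 2-sided. They ran on 10845 genes that reached a level of 10 in 2 or more libraries. Borrowing across genes raised the 4 residual degrees of freedom to 8.48. The Benjamini-Hochberg method was applied over all tested genes, with calls made below 0.05. The pseudocount makes fold changes of low genes too small. The tests were first checked on simulated reads for the direction and size of planted differences. Those reads had 1 spread per gene for all groups, unlike the replicate pairs here. The check thus does not show how often a call is false in these data. Alternatives numbered 21 and included edgeR 4.0.16 and DESeq2 1.42.0 on whole reads; 1, leaving out both kidney CD4+ libraries, was added after the data were seen. The members, lists, tests and the rule for named genes were chosen with earlier results of these data known, so no list is tested as a set. Named genes were all members, the 3 genes most like each member, and called genes of the pathway lists (at most 4 a list); 1 gene that the rule names is not reported here. Gene positions and exon lengths are from an mm9 annotation, in which no other gene overlaps an exon of the 6. Amplified reads that lack molecular identifiers do not count independent molecules.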

Additional observations from a re-analysis of the deposited data

How the results depend on the processing

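Of 708 values of the 6 genes under an alternative, 662 kept their direction and their side of the threshold, 26 gained a call, 4 lost one and 16 changed sign. The 4 lost calls are those of Dusp2 without a spleen library, and all 16 changes of sign came from leaving out 1 library. Leaving out 1 library in turn, Dusp10 ranged from -1.04 to 1.38 (log2 scale) between organs in CD4+ cells, from -1.03 to 0.19 over both cell types, from -2.09 to 0.33 between cell types in kidney and from -2.39 to 0.0369 for the difference of organ effects. Dusp6 ranged from -0.98 to 1.08, from -0.69 to 0.34, from -1.92 to 0.14 and from -1.48 to 0.59 in the same order, and from -0.94 to 0.0524 between cell types in spleen. Dusp5 ranged from -0.0933 to 0.56 between organs in CD4+ cells, Dusp4 from -1.39 to 0.0483 between cell types in kidney, and Dusp2 from -0.25 to 0.76 for the difference of organ effects.

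Members called with 1 library left out ranged from 0 to 1 (CD4+ cells between organs), 0 to 2 (CD8+ cells), 0 to 3 (both), 0 to 2 (cell types in kidney) and 0 to 1 (in spleen). Otherwise they moved to 1, 2, 2 and 1 with DESeq2 in the CD4+, CD8+, both-type and spleen comparisons. They moved to 2 (CD8+) and 3 (spleen) with library weights, to 2 and 1 without both kidney CD4+ libraries, and to 1 in spleen with the compared libraries alone.

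All genes called moved more widely. With 1 library left out they ranged from 15 to 2331 in CD4+ cells between organs (104 with all 8), 21 to 737 in CD8+ (168), 148 to 2749 over both (366), 3 to 1351 between cell types in kidney (22), 2 to 323 in spleen (39) and 0 to 745 for the difference (0). DESeq2 called 352, 486, 789, 215, 234 and 12 in that order, and edgeR 66 in CD4+ and 99 in CD8+ cells. Without the intensity trend 210 (CD4+) and 64 (kidney) were called. With library weights 31 (CD4+), 577 (CD8+), 12 (kidney) and 666 (spleen) were called. With the compared libraries alone 0 (CD4+), 0 (kidney) and 142 (spleen) were called. A pseudocount of 5 gave 38 (kidney) and 74 (spleen), TMM factors gave 59 (spleen), and leaving out both kidney CD4+ libraries gave 745 (CD8+) and 325 (spleen). The cause of these shifts was not tested. Under the minimum level of 50, Dusp4 and Dusp5 were not tested.

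Replicate numbers are shared by the groups, and the labels do not say whether they pair the samples. Between groups, the differences of replicate 1 and 2 correlated across genes at -0.15 to 0.06. With replicates this unlike, such values cannot show whether libraries of the same number came from the same animal. With a replicate block the genes called in spleen between cell types fell to 19, the other counts stayed within 1.5 times, and 1 member, Dusp2 over both cell types, was called, as without it. Depth limits Dusp5 and, in spleen CD8+ cells, Dusp4, which rest on 49 or fewer and 9 or fewer reads a library.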
